A study of Mus musculus with 15 samples.

Results

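The expression of 9 genes of heme metabolism was measured in CD4+ T cells with and without the AMPKα1 subunit: 8 genes of heme synthesis (Alas1, Alas2, Alad, Uros, Urod, Cpox, Ppox and Fech) and Hmox1, which encodes the enzyme that breaks heme down. They were selected by symbol from the 55421 genes in the count tables, with their difference between KO and WT already known, so their KO against WT values are a description, with no p-value for a single gene and with counts of calls only beside the background. All 9 passed the filter on low counts in every comparison. WT donor T cells carried floxed Prkaa1 alleles without Cre (PRKAA1fl/fl), and KO donor T cells carried the same alleles with CD4-Cre, which deletes in T cells from the thymus onwards, so the floxed alleles and the C57BL/6 strain were common to all groups. Naive cells were transferred into Rag-deficient recipients, which lack T and B cells of their own but keep their red cells, macrophages and other myeloid cells. Donor CD4+ T cells were recovered by sorting 6 weeks later from mesenteric lymph nodes (mLN) and spleen, during T cell transfer colitis, and their RNA was sequenced. There were 4 WT spleen, 4 KO spleen, 3 WT mLN and 4 KO mLN samples. The study used young adult mice, and the labels give no age.

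Heme is an iron-containing ring built partly in mitochondria and partly in the cytosol. ALAS condenses glycine and succinyl-CoA, ALAD, UROS and UROD build and trim the ring in the cytosol, CPOX and PPOX oxidize it in mitochondria, and ferrochelatase (FECH) inserts the iron. Every nucleated cell uses ALAS1 to supply heme for cytochromes and other hemoproteins, whereas ALAS2 is the isozyme of red cell precursors, which make heme for hemoglobin. Heme oxygenase 1 (HMOX1) is abundant in the red pulp macrophages of the spleen, which clear old red cells.

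The libraries held between 9363940 and 11283439 reads on genes, so that a level of 1 CPM (counts per 1000000 reads on genes) stood for 9.36 to 11.3 reads. Prkaa1 itself was at 46.3 to 60.9 CPM in the WT libraries and at 18.4 to 32.2 CPM in the KO libraries. All 10 T cell markers were detected in every library, with sums of 7903 to 10540 CPM. WT spleen replicates 3 and 4 and WT mLN replicate 4 stood apart by their erythroid RNA: the 4 adult globin genes (Hba-a1, Hba-a2, Hbb-bs and Hbb-bt) summed to 1756, 842 and 752 CPM in them and to 16.6 to 110 CPM in the other 12 libraries. The near-identical Hba-a1 and Hba-a2 are undercounted, since reads that map to both were left out. Over the 27 matched genes of a list of 28 erythroid markers, the summed level was 292 to 2286 CPM in WT spleen, 187 to 289 CPM in KO spleen, 154 to 981 CPM in WT mLN and 147 to 194 CPM in KO mLN. These 3 libraries are called erythroid-rich here, and the genotype differences of the 9 genes are given with and without them. All 3 are WT libraries, so in the pooled comparisons erythroid RNA and genotype cannot be told apart. In sorted bulk samples, fewer cells of a type and less RNA per cell cannot be told apart either.

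The upstream sequences of Alas2 and Cpox are shown because each holds 1 of 2 hexamers that erythroid GATA factors are known to bind. The reads of only 1 of these genes moved with the globin reads below. Both are RefSeq sequence on GRCm38.p6, from the plus strand and 5′ to 3′, and end before the first transcribed base. Capitals mark AGATAA or TGATAA, read on either strand (TTATCT or TTATCA in the other direction), and the motifs do not overlap here.
Alas2, chrX:150547167-150547374: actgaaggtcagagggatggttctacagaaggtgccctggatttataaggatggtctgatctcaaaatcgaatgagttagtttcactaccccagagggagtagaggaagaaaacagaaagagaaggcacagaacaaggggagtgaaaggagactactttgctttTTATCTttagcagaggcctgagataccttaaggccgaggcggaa
Cpox, chr16:58669958-58670207: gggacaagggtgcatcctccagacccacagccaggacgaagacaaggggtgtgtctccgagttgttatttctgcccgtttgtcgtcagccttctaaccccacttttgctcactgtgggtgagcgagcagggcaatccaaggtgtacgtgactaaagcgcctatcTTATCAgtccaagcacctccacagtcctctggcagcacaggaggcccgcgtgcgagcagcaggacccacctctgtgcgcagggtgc
The 2 hexamers differ, TTATCT in Alas2 and TTATCA in Cpox. The first began 44 bases before the end of the Alas2 sequence and the second 86 bases before the end of the Cpox sequence. One of these hexamers was found in the 250 bases before the start in 5452 of 32851 RefSeq promoter windows (16.6%), so a match is common. Among the 10 windows of the 7 members that had any, it was present in those of Alas2 and Cpox and in 1 of Uros.

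Alas1 (chr9:106233455-106248654), the ubiquitous isozyme of the first step, overlapped between all groups. It was at 42.4, 49.8, 44.3 and 42.8 CPM in the WT spleen libraries and at 50.7, 47.1, 47.6 and 47.4 CPM in KO spleen. In mLN it was at 55.4, 36.0 and 47.3 CPM in WT and at 47.7, 49.6, 42.8 and 59.3 CPM in KO. The genotypes overlapped in both organs, with log2 fold changes of KO over WT of 0.12 ± 0.07 (SE) in spleen and 0.10 ± 0.17 in mLN, and 0.09 ± 0.09 and 0.11 ± 0.20 without the erythroid-rich libraries. Its exons overlap 4930500F10Rik on the other strand, and since the strand setting of the counting is not given in the sources used here, its reads are uncertain to that extent.

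Alas2 (chrX:150547375-150570638), the erythroid isozyme, was high only in the 3 erythroid-rich libraries. WT spleen held 7.43, 6.84, 81.5 and 35.4 CPM of it, and KO spleen held 5.04, 3.13, 4.42 and 2.13 CPM. In mLN the values were 2.77, 1.98 and 36.5 CPM in WT and 2.43, 3.12, 0.991 and 4.28 CPM in KO, which rest on 10 to 48 reads outside the erythroid-rich library. Per 100 globin reads there were 4.21 to 4.85 Alas2 reads in the erythroid-rich libraries and 4.45 to 15.4 in the other 12. Per exon length, Alas2 supplied 66.4% to 82.5% of the 2 ALAS messages in the erythroid-rich libraries and 5.61% to 31.1% in the others. This scaling takes the exons of all annotated transcripts, 6174 bases for Alas1 and 2403 for Alas2. By reads alone the share was 64.8% and 45.3% in WT spleen replicates 3 and 4 and 43.5% in WT mLN replicate 4. In the other libraries it was 2.26% to 14.9%. The log2 fold change of KO over WT was −3.17 ± 0.77 (SE) in spleen and −2.34 ± 0.86 in mLN with all libraries. Without the erythroid-rich libraries it was −0.94 ± 0.31 in spleen and 0.17 ± 0.57 in mLN. In the remaining spleen libraries Alas2 still did not overlap between the genotypes (6.84 and 7.43 CPM against at most 5.04 CPM), while their globin sums were 83.1 and 110 CPM in WT and 37.1 to 99.5 CPM in KO. Alas2 shares exon positions with Apex2 on the other strand, which was at 16.9 to 28.7 CPM and highest in WT spleen replicate 3.

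**Figure D1:**
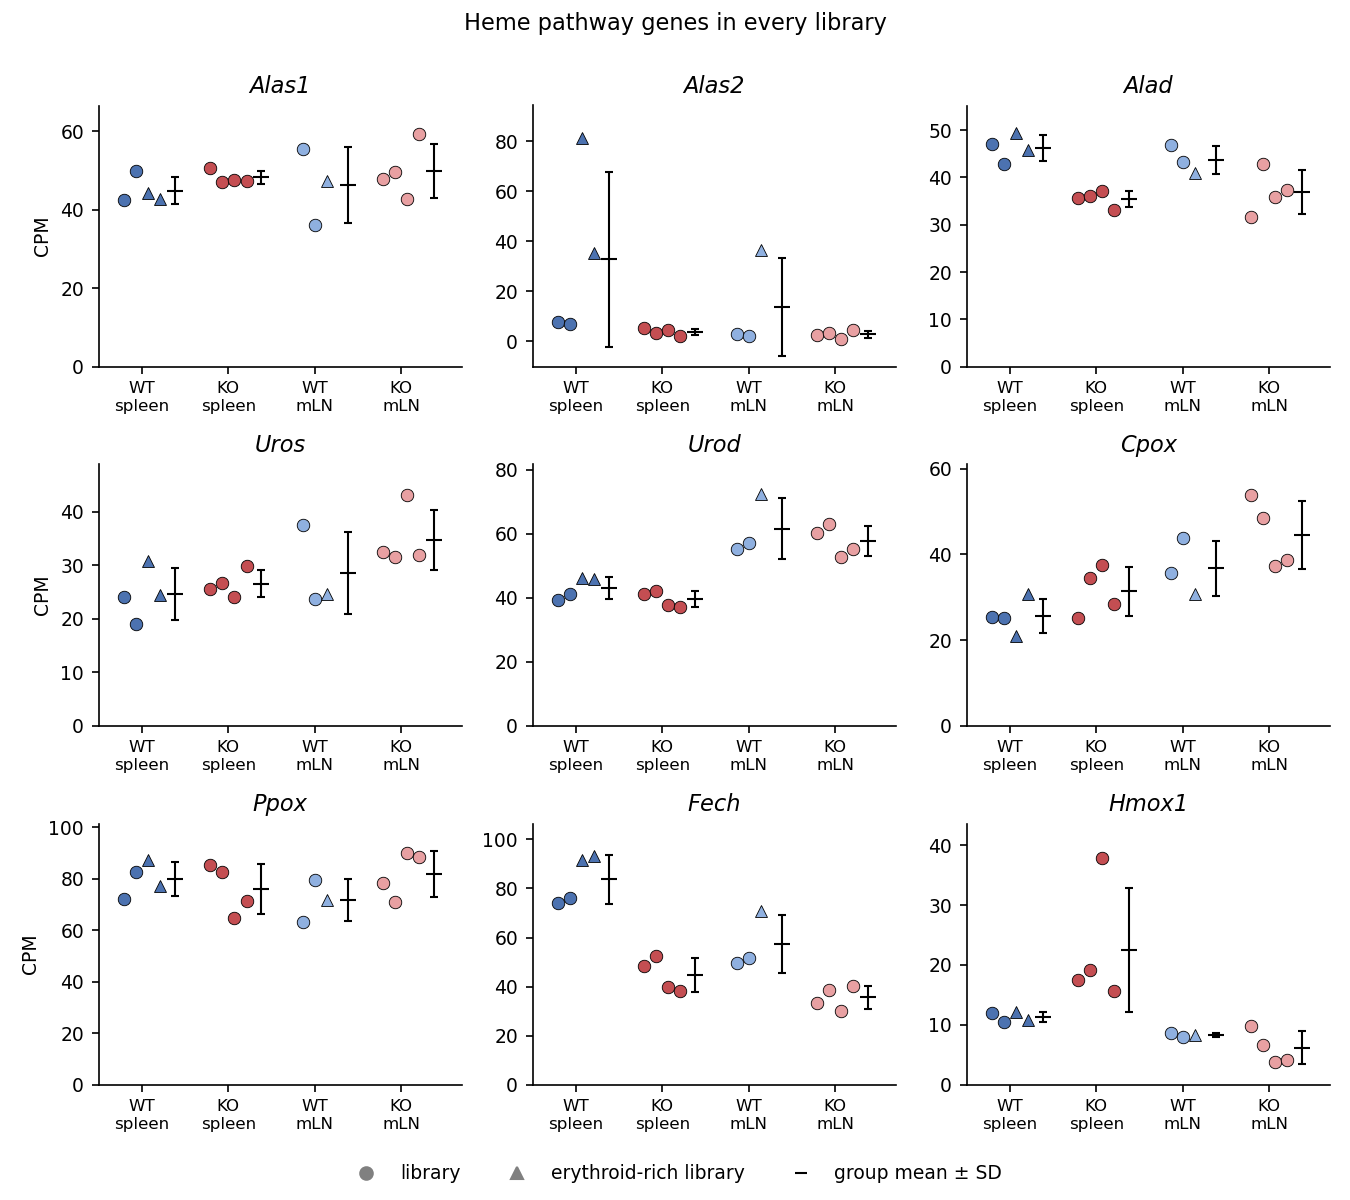
CPM of the 9 genes (y axis, linear) in each of the 15 libraries, grouped by genotype and organ (x axis). Circles are libraries, triangles are the 3 erythroid-rich libraries, and the bars at the right of each group give the mean ± SD. Alas2 is above 35 CPM in the triangles and under 8 CPM elsewhere, Fech in KO lies below WT in both organs, and Hmox1 is highest in KO spleen replicate 3 (37.9 CPM).

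Alad (chr4:62509169-62519918), which joins 2 ALAS products into a pyrrole, was lower in KO spleen than in every WT spleen library. It was at 47.0, 42.8, 49.3 and 45.8 CPM in WT spleen and at 35.6, 36.0, 37.2 and 33.1 CPM in KO spleen, or 76.7% of the WT mean. The log2 fold change was −0.37 ± 0.08 (SE). In mLN the WT libraries held 47.0, 43.2 and 41.0 CPM and the KO libraries 31.6, 42.8, 36.0 and 37.5 CPM, with a log2 fold change of −0.25 ± 0.13 and an overlap of a single pair of libraries. The WT library in that pair was the erythroid-rich one, and without it the groups did not overlap. The erythroid-rich libraries held 105.9% of the Alad level of the other WT libraries in spleen and 90.8% in mLN. Without them, KO was at 79.0% of WT in spleen and at 82.0% in mLN.

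Uros (chr7:133686243-133710072) and Urod (chr4:116989965-116994413), which close the ring and trim its side chains, overlapped between the genotypes in both organs. Uros was at 19.0 to 30.8 CPM in WT spleen, 24.0 to 30.0 CPM in KO spleen, 23.6 to 37.5 CPM in WT mLN and 31.5 to 43.2 CPM in KO mLN. Its log2 fold changes of KO over WT were 0.12 ± 0.15 (SE) in spleen and 0.27 ± 0.20 in mLN, and 0.32 ± 0.15 and 0.17 ± 0.22 without the erythroid-rich libraries. Urod was at 39.4, 41.1, 46.2 and 45.8 CPM in WT spleen and at 41.3, 42.2, 37.8 and 37.2 CPM in KO spleen. In mLN it was at 55.3, 57.1 and 72.5 CPM in WT and at 60.4, 62.9, 52.7 and 55.1 CPM in KO. Its log2 fold changes were −0.11 ± 0.08 in spleen and −0.10 ± 0.13 in mLN. The highest Urod values of each WT group were those of the erythroid-rich libraries, which held 1.14 times the level of the others in spleen and 1.29 times in mLN. Without them the log2 fold changes of Urod were 0.00 ± 0.09 in spleen and 0.03 ± 0.13 in mLN.

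Cpox (chr16:58670292-58717636) and Ppox (chr1:171275990-171281186), the oxidases of the mitochondrial steps, also overlapped between the genotypes. Cpox was at 25.4, 25.1, 21.1 and 30.7 CPM in WT spleen and at 25.1, 34.5, 37.6 and 28.4 CPM in KO spleen. In mLN it was at 35.6, 43.7 and 30.8 CPM in WT and at 53.8, 48.6, 37.2 and 38.6 CPM in KO. The log2 fold changes of KO over WT were 0.31 ± 0.14 (SE) in spleen and 0.27 ± 0.17 in mLN, and 0.34 ± 0.16 and 0.16 ± 0.19 without the erythroid-rich libraries. In contrast to Alas2, whose promoter holds the other hexamer shown above, Cpox was not higher in the erythroid-rich libraries, at 1.02 times the others in spleen and 0.777 times in mLN. Ppox ranged from 63.3 to 89.9 CPM over all libraries, with log2 fold changes of −0.06 ± 0.10 in spleen and 0.18 ± 0.12 in mLN, and −0.005 ± 0.11 and 0.19 ± 0.14 without the erythroid-rich libraries. Exons of Cpox and Ppox overlap Gpr15 and B4galt3 on the other strand. Depending on the strand setting, reads on the shared positions may be left out as ambiguous or credited to either gene.

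Fech (chr18:64452914-64490251), the last enzyme, was lower in every KO library than in any WT library of the same organ. In spleen it was at 74.2, 76.1, 91.4 and 93.1 CPM in WT and at 48.5, 52.3, 40.0 and 38.1 CPM in KO, each resting on 425 to 964 reads. The means were 83.7 ± 9.90 CPM (SD, n = 4) in WT and 44.7 ± 6.77 CPM (n = 4) in KO, or 53.4% of WT, with a log2 fold change of −0.89 ± 0.12 (SE). In mLN it was at 49.6, 51.6 and 70.9 CPM in WT and at 33.5, 38.7, 30.0 and 40.1 CPM in KO. The means were 57.3 ± 11.8 CPM (SD, n = 3) and 35.6 ± 4.67 CPM (n = 4), or 62.1% of WT, with a log2 fold change of −0.70 ± 0.16. The WT libraries with the most Fech were the erythroid-rich ones in both organs.

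Fech was then set beside the erythroid RNA. In spleen the erythroid-rich libraries held 17.1 CPM more Fech than the 2 other WT libraries (1.23 times), and in mLN 20.3 CPM more (1.40 times), while their Alas2 was 8.19 and 15.4 times as high. Leaving these libraries out, KO was at 59.5% of WT in spleen (44.7 against 75.2 CPM) and at 70.3% in mLN (35.6 against 50.6 CPM), and the genotypes still did not overlap in either organ. The log2 fold changes were then −0.73 ± 0.12 (SE) in spleen and −0.52 ± 0.16 in mLN, with 2 WT libraries left in each organ. Leaving these libraries out did not make the erythroid RNA of the genotypes equal in spleen. Mean Alas2 there was still 7.13 CPM in WT and 3.68 CPM in KO, without overlap, against 2.38 and 2.71 CPM in mLN. The part of this erythroid RNA in the remaining Fech difference was not tested. As a further description, chosen after the values were seen, the excess of Fech per CPM of Alas2 in the erythroid-rich libraries (0.333 in spleen, 0.594 in mLN) was subtracted from every library according to its Alas2. With the spleen ratio, 43.5 ± 6.66 CPM (SD, n = 4) remained in KO spleen against 72.8 ± 6.97 CPM (n = 4) in WT spleen, and 34.7 ± 4.22 CPM (n = 4) in KO mLN against 52.8 ± 5.29 CPM (n = 3) in WT mLN, without overlap in either organ. With the larger mLN ratio, which rests on 1 erythroid-rich library, KO was at 66.2% of WT in spleen and at 69.1% in mLN. The spleen groups then overlapped, because WT spleen replicate 3 dropped to 43.0 CPM against at most 50.4 CPM in KO. This arithmetic takes every Alas2 read as erythroid and a single ratio for all libraries, neither of which was tested. In the organ that gave the ratio, it also sets the mean of the erythroid-rich libraries equal to that of the other WT libraries. There it largely restates the comparison without the erythroid-rich libraries and is not a separate test. With either ratio, the part ascribed to erythroid RNA in the KO libraries was at most 6.57% of their Fech. The same subtraction for Urod, with ratios of its own, put KO spleen at 99.4% of WT with the spleen ratio (0.112). Its mLN ratio (0.477) put KO spleen at 137.9% of WT and left 7.29 CPM of Urod in WT spleen replicate 3.

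**Figure D2:**
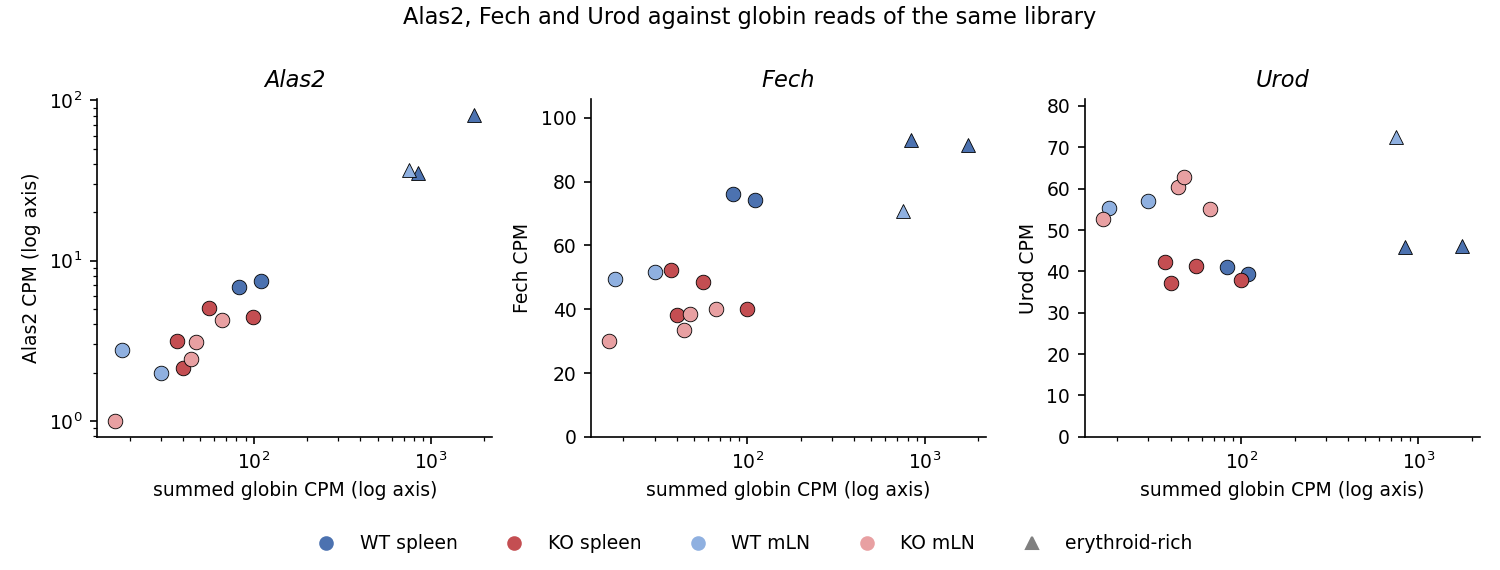
CPM of Alas2 (left, log axis), Fech (middle) and Urod (right) against the summed globin CPM of the same library (log axis), with 1 point per library, coloured by group and triangles for the erythroid-rich libraries. Alas2 is highest in the 3 libraries with the most globin, whereas KO Fech (30.0 to 52.3 CPM) lies below WT Fech of the same organ also where the globin sum is under 110 CPM.

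Hmox1 (chr8:75093621-75100589), on the breakdown side, was higher in every KO spleen library than in any WT spleen library, and not in mLN. In spleen it was at 11.9, 10.5, 12.1 and 10.8 CPM in WT and at 17.5, 19.1, 37.9 and 15.6 CPM in KO. The means were 11.3 ± 0.819 CPM (SD, n = 4) and 22.6 ± 10.4 CPM (n = 4), with a log2 fold change of 1.01 ± 0.26 (SE). Without KO spleen replicate 3 the log2 fold change was 0.63 ± 0.13. In mLN it was at 8.69, 8.01 and 8.37 CPM in WT and at 9.82, 6.70, 3.87 and 4.19 CPM in KO, where the groups overlapped, with a log2 fold change of −0.45 ± 0.33. The erythroid-rich libraries held 102.5% of the Hmox1 level of the other WT libraries in spleen and 100.3% in mLN, and without them the log2 fold changes were 1.03 ± 0.35 and −0.45 ± 0.39. The summed level of 15 macrophage and monocyte markers, all of them matched, was 150 to 277 CPM in WT spleen, 204 to 597 CPM in KO spleen, 69.0 to 281 CPM in WT mLN and 108 to 146 CPM in KO mLN. KO spleen replicate 3, with the most Hmox1, also had the highest marker sum and the most reads of Spic (182), a regulator of red pulp macrophages, and of the iron exporter Slc40a1 (700). The other 3 KO spleen libraries, with 204 to 255 CPM of these markers, had more Hmox1 than WT spleen replicate 4, which had 277 CPM of markers and 10.8 CPM of Hmox1. Spic, in contrast to the sum, did not overlap, with 38, 33, 29 and 20 reads in WT spleen and 46, 76, 182 and 94 in KO spleen. Slc40a1 had 158, 55, 124 and 184 reads in WT spleen and 292, 262, 700 and 181 in KO spleen. Between KO and WT spleen, the median log2 fold change of the 14 markers tested was 1.38, and 0 of them passed an adjusted p of 0.05 with edgeR, while 11 had an unadjusted p under 0.05 and DESeq2 called 9. Macrophage and monocyte markers thus moved with Hmox1 in spleen, and their part in its values was not tested.

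**Figure D3:**
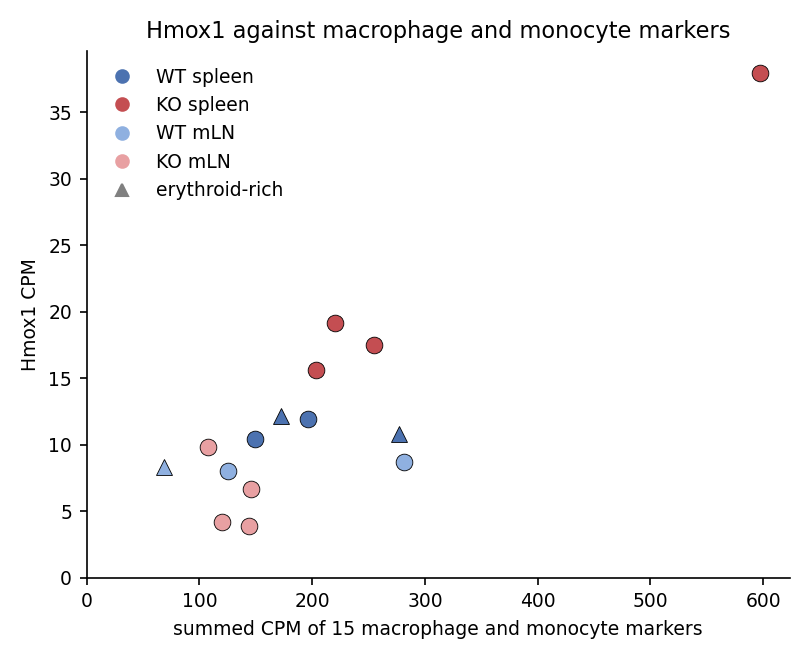
Hmox1 CPM against the summed CPM of 15 macrophage and monocyte markers in the same library (both axes linear), with 1 point per library coloured by group and triangles for the erythroid-rich libraries. KO spleen replicate 3 is highest on both axes (597 and 37.9 CPM), and the other KO spleen libraries lie above WT spleen libraries with marker sums in the same range.

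Of the 9 genes, 1 (Fech) passed an adjusted p of 0.05 between KO and WT spleen and 0 passed in mLN, by edgeR's quasi-likelihood test with Benjamini-Hochberg adjustment over all genes. The background is 1.3% of 14254 genes in spleen and 0.641% of 14359 genes in mLN. Since the genes were chosen with these contrasts known, nothing is read from the counts. At an unadjusted p of 0.05 they were 4 and 2, beside 2924 of 14254 and 2253 of 14359 genes tested. DESeq2 called 4 in spleen (Alas2, Alad, Fech and Hmox1), beside 412 lower and 387 higher of 35256 genes. In mLN it called 1 (Fech), beside 279 lower and 282 higher of 33681 genes. In spleen 3 of 9 did not overlap on the lower side (Alas2, Alad and Fech), against 6.31% of all genes tested, and 1 on the higher side (Hmox1), against 5.68%. In mLN 1 of 9 did not overlap on the lower side (Fech), against 6.94%, and 0 on the higher side, against 7.49%. The median log2 fold change of the 9 genes was −0.06 in spleen and −0.10 in mLN, against −0.0041 and −0.0038 over all genes tested. The organs' contrasts were compared in 1 fit of all samples. No gene among 15438, members included, showed a genotype by organ interaction at an adjusted p of 0.05 with edgeR, while 652 had an unadjusted p under 0.05 and DESeq2 called 2 genes. The interaction estimate was 0.19 ± 0.20 (SE, log2) for Fech and −1.45 ± 0.44 for Hmox1.

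**Figure D4:**
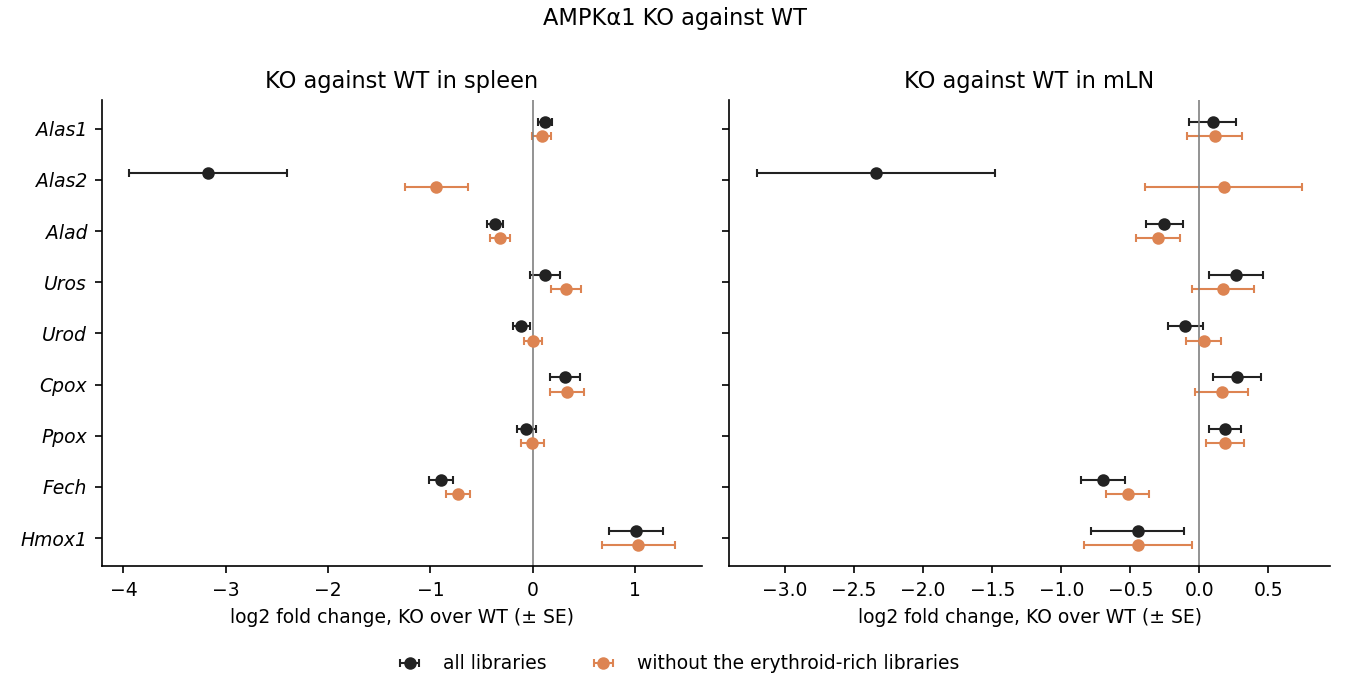
Log2 fold change of KO over WT (x axis, with SE bars) for the 9 genes in spleen (left) and mLN (right), with all libraries in black and without the erythroid-rich libraries in orange. Alas2 moves from −3.17 to −0.94 in spleen and from −2.34 to 0.17 in mLN, while Fech stays negative in both organs. The 2 panels have different scales.

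Compared per kilobase of exon (CPM per kb), so that genes of different length can be set side by side, Alad, Urod and Ppox had the 3 highest group means of the 9 messages in all 4 groups. In WT spleen, Alad led with 24.7 ± 1.44 CPM per kb (SD, n = 4), and Ppox (17.7 ± 1.46) and Urod (16.6 ± 1.32) followed with overlapping ranges. Alas2 came next there by its mean (13.6 ± 14.6), but in WT spleen replicate 3 it was at 33.9 CPM per kb, above the 26.4 of Alad in that library, and in the libraries that were not erythroid-rich at 2.84 and 3.09. In KO spleen the fourth mean was that of Hmox1 (12.9 ± 5.91, n = 4), whose range overlapped that of Urod (15.3 ± 0.951). In WT mLN, Urod (23.8 ± 3.64, n = 3) and Alad (23.4 ± 1.62) overlapped, and both were above Ppox (15.9 ± 1.80). Alas1, Uros and Cpox held 3.84 to 9.72 CPM per kb as group means. Fech was near the bottom of the order, with 6.05 ± 0.715 CPM per kb in WT spleen, 3.23 ± 0.489 in KO spleen, 4.14 ± 0.849 in WT mLN and 2.57 ± 0.337 in KO mLN. In KO spleen and KO mLN, Alas2 alone ranked below Fech, with 1.53 ± 0.544 and 1.13 ± 0.572 CPM per kb. The exons of Fech add up to 13838 bases over all annotated transcripts, so its level per length is an underestimate where shorter transcripts are used.

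The organs were compared within each genotype, a contrast that the rule for the genes did not use, although earlier results of these data were known when they were chosen, and Urod and Cpox were higher in mLN in both genotypes. In WT, mLN over spleen rose by 0.55 ± 0.12 (log2, SE) for Urod (edgeR adjusted p = 0.0128, higher in 3 of 3 mLN libraries than in any spleen library). Cpox rose by 0.56 ± 0.15 (edgeR adjusted p = 0.0297), again without overlap. Fech fell by 0.51 on the log2 scale (SE 0.15, edgeR adjusted p = 0.0402), from 83.7 to 57.3 CPM, without overlap. These 3 of 9 compare with a background of 20.5% of 14515 genes called. This fit ignores the pairing of same-numbered WT samples. With the replicate number as a block, Urod, Cpox and Fech had edgeR adjusted p-values of 0.00156, 0.0386 and 0.00352. In that fit 2225 of the 14515 genes were called lower and 2126 higher. Counting groups without overlap, 2 were higher in WT mLN (Urod and Cpox, background 13.3%) and 2 lower (Fech and Hmox1, background 18.2%). In KO, Urod rose by 0.55 ± 0.09 (edgeR adjusted p = 0.00123), Cpox by 0.51 ± 0.16 (edgeR adjusted p = 0.0364) and Uros by 0.40 ± 0.13 (edgeR adjusted p = 0.0452), the last from 26.5 ± 2.53 to 34.8 ± 5.64 CPM. Fech had a log2 fold change of −0.32 ± 0.13 (edgeR adjusted p = 0.0864). Hmox1 fell by 1.86 on the log2 scale (SE 0.35, edgeR adjusted p = 0.00287), from 15.6 to 37.9 CPM in KO spleen to 3.87 to 9.82 CPM in KO mLN. These 4 of 9 compare with a background of 25.5% of 14240 genes. Without overlap, 2 were higher in KO mLN (Uros and Urod, background 13.3%) and 1 lower (Hmox1, background 15.3%).

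Alas1, Alad and Ppox passed in neither genotype, with log2 fold changes of mLN over spleen between −0.12 and 0.12. Hmox1 in WT, at 8.01 to 8.69 CPM in mLN and 10.5 to 12.1 CPM in spleen, did not overlap but had an edgeR adjusted p of 0.112 (log2 fold change −0.40 ± 0.16). Without the erythroid-rich libraries, Urod (0.52), Cpox (0.68) and Fech (−0.54) passed in WT as before (edgeR adjusted p = 0.0404, 0.0392 and 0.0283), and Alas2 passed as well, at −1.54 ± 0.33 (edgeR adjusted p = 0.0328). The fits without single libraries had no replicate block. Leaving out single libraries ended the WT call of Fech for WT spleen replicate 1, 2, 3 or 4 and WT mLN replicate 1 or 2 (edgeR adjusted p = 0.0522 to 0.128). It ended that of Cpox for WT spleen replicate 1, 2 or 3 and WT mLN replicate 1 or 2 (0.0603 to 0.106). In KO, that of Cpox ended without KO spleen replicate 1, 2 or 4 or KO mLN replicate 1 or 2 (0.0611 to 0.111), and that of Uros without KO spleen replicate 1, 2 or 3 or KO mLN replicate 1 or 3 (0.06 to 0.131). Urod in both genotypes and Hmox1 in KO passed whichever library was left out. Markers of other cells also differed between the organs. In KO, 11 of 15 macrophage and monocyte markers and 7 of 9 neutrophil markers were lower in mLN, among them Cd163 and Spic. In WT these counts were 2 of 14 and 7 of 9. Of all genes tested, 1945 of 14240 were lower and 1680 higher in KO mLN, and 1572 of 14515 lower and 1408 higher in WT mLN. The macrophage and monocyte count in WT was thus near the share of all genes. Of the erythroid list, 8 of 25 tested were lower in mLN in WT and 6 of 16 in KO (DESeq2 called 8 and 11), among them Car1, a carbonic anhydrase, at 15.9 to 21.5 CPM in WT spleen and 0 to 1.79 CPM in WT mLN. Of the 10 T cell markers, 2 were higher and 0 lower in mLN in WT, and 6 were higher and 1 lower in KO, with median log2 fold changes of 0.19 and 0.26. Cd3d rose by 0.46 in WT and 0.49 in KO (edgeR adjusted p = 0.0137 and 0.000215), whereas Cd3e fell by 0.22 in KO (edgeR adjusted p = 0.0275), a call that held in 3 of the 8 fits without 1 library. The part of these cells in the organ differences was not tested.

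**Figure D5:**
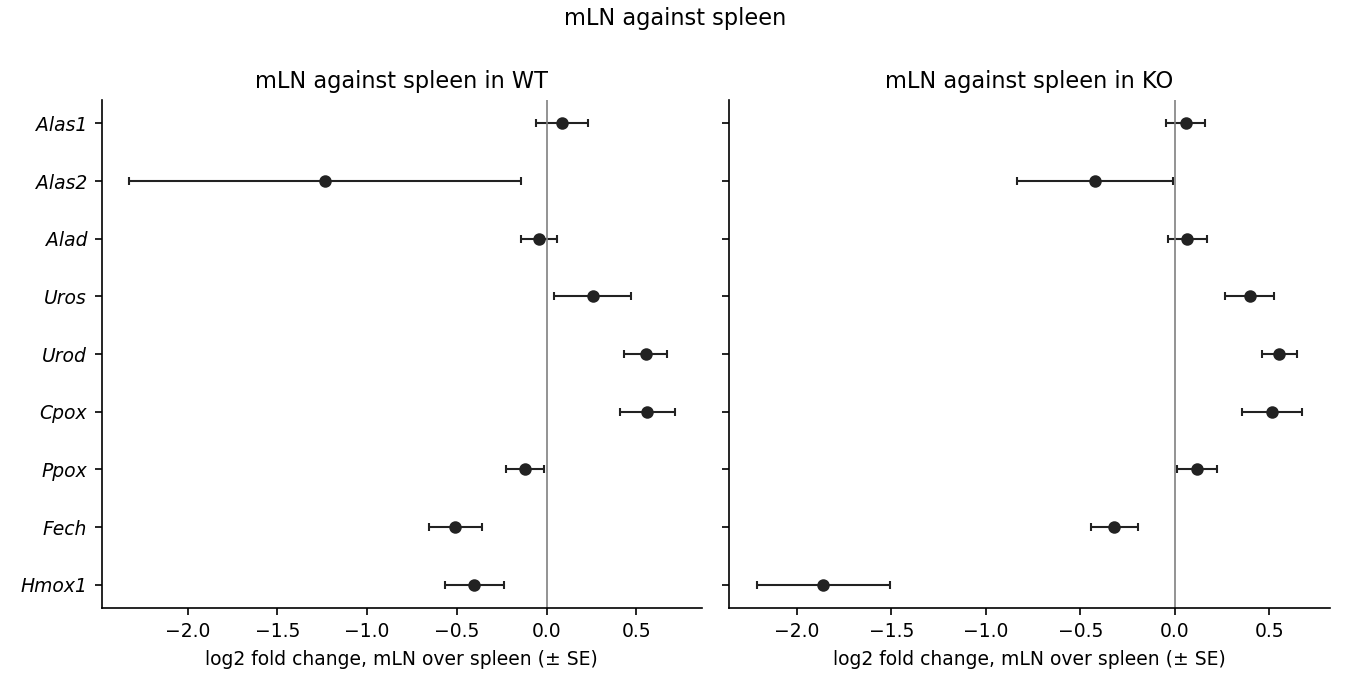
Log2 fold change of mLN over spleen (x axis, with SE bars) for the 9 genes in WT (left) and KO (right), all libraries. Urod and Cpox lie near 0.5 in both panels, Fech is negative in both, and Hmox1 is at −0.40 in WT and −1.86 in KO. The 2 panels have different scales.

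The genes around the pathway were described from 6 lists that hold 73 genes: further heme synthesis and mitochondrial transport, heme breakdown and transport, heme sensors and regulators, NRF2 targets, iron handling, and hemoproteins with their assembly factors. Between KO and WT spleen 1 of 67 tested passed, Pcbp1, an iron chaperone, which rose by 0.66 ± 0.11 (log2, SE, edgeR adjusted p = 0.0391) from 205 ± 37.3 to 318 ± 17.1 CPM (SD, n = 4 each). This call was lost without WT spleen replicate 1 or 2 or any 1 of KO spleen replicates 1, 2, 3 and 4 (edgeR adjusted p = 0.0581 to 0.107), and held without the erythroid-rich libraries (0.56 ± 0.09, edgeR adjusted p = 0.0231). In mLN 1 of 69 passed, Cox10, whose enzyme lies on the path from heme to the heme A of cytochrome oxidase. Cox10 fell by 0.81 on the log2 scale (SE 0.15, edgeR adjusted p = 0.0414) from 79.4 ± 13.7 CPM (SD, n = 3) to 45.5 ± 6.36 CPM (n = 4). The call of Cox10 was lost whichever of the 7 mLN libraries was left out (edgeR adjusted p = 0.0524 to 0.153, the last without the erythroid-rich library). These shares, 1.49% and 1.45%, stand beside the backgrounds of 1.3% and 0.641%. The median log2 fold changes of the 6 lists lay between −0.19 and 0.06 in spleen and between −0.13 and 0.08 in mLN. Of the erythroid list, 2 of 24 tested were lower in KO spleen, the Rh proteins Rhag (−2.81 ± 0.37) and Rhd (−2.71 ± 0.51, edgeR adjusted p = 0.0123 and 0.0444), while 22 had an unadjusted p under 0.05 and DESeq2 called 18, and the median of the 24 was −1.97. Without the erythroid-rich libraries Rhag was at −2.20 ± 0.28 (edgeR adjusted p = 0.00998) and Rhd at −1.54 ± 0.35 (edgeR adjusted p = 0.0905). The call of Rhag was lost without KO spleen replicate 2 (edgeR adjusted p = 0.056), and that of Rhd without WT spleen replicate 2 or 4 or any 1 of KO spleen replicates 1, 2, 3 and 4 (edgeR adjusted p up to 0.121). In mLN the median of the 8 tested was −2.24, and 0 passed with edgeR, while 7 had an unadjusted p under 0.05 and DESeq2 called 1.

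More of these genes differed between the organs, 20 of 67 in WT (29.9%) and 19 of 68 in KO (27.9%), against the backgrounds of 20.5% and 25.5%. In WT the count was 6 without the erythroid-rich libraries and 11 without WT mLN replicate 4 alone, and in KO 12 without KO spleen replicate 1. Fewer of all genes were called in these fits as well. In WT they were 937 lower and 535 higher of 14388, and 1154 lower and 890 higher of 14856. In KO they were 1545 lower and 1115 higher of 14497. Bach1, a heme-binding repressor of Hmox1, was lower in mLN, by −1.03 ± 0.17 in WT and −1.14 ± 0.22 in KO (log2, SE, edgeR adjusted p = 0.00335 and 0.0029), at 21.5 and 22.3 CPM in WT and KO spleen and 10.25 and 10.04 CPM in WT and KO mLN. Nfe2l2, which encodes the activator NRF2 that binds the same kind of site, rose by 0.59 ± 0.12 and 0.53 ± 0.09 (edgeR adjusted p = 0.0103 and 0.00103). Hmox2, the constitutive heme oxygenase, rose by 0.37 ± 0.10 and 0.32 ± 0.08 (edgeR adjusted p = 0.0298 and 0.0131), opposite to Hmox1 in KO. Its call was lost in WT without WT spleen replicate 2 or 3 or WT mLN replicate 2 or 4, and in KO without KO spleen replicate 1 (edgeR adjusted p up to 0.0927 and 0.0526). Slc40a1, the iron exporter of macrophages, was at 5.87 to 65.9 CPM in spleen and 0 to 2.97 CPM in mLN. The ferritin heavy chain Fth1 rose in WT by 0.58 ± 0.08 (edgeR adjusted p = 0.00191). Sdhc and Sdhd, subunits of the heme-bearing succinate dehydrogenase, and Cyc1, cytochrome c1, rose in both genotypes, by 0.26 to 0.51, although the call of Cyc1 was lost without WT spleen replicate 2 or WT mLN replicate 1 or 4 in WT and without KO spleen replicate 1 in KO (edgeR adjusted p up to 0.0702 and 0.0682). Tspo, a mitochondrial porphyrin-binding protein, rose by 0.42 ± 0.09 in WT and 0.34 ± 0.08 in KO (edgeR adjusted p = 0.0111 and 0.0083). Without the erythroid-rich libraries the WT values of Nfe2l2, Hmox2, Tspo and Cyc1 were 0.60, 0.27, 0.39 and 0.28 (edgeR adjusted p = 0.0567, 0.249, 0.0636 and 0.133). Of the 7 NRF2 targets tested, 0 passed with edgeR or DESeq2 in either genotype, while 1 in WT and 3 in KO had an unadjusted p under 0.05.

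The genes whose level followed that of 3 members most closely over the 15 libraries were looked up among 15438 genes, as a description without a test, since the libraries share genotype, organ and erythroid RNA. For Alas2 they were Hbb-bs (Pearson's r = 0.983), Hba-a2 (0.969), Hba-a1 (0.967), Hbb-bt (0.952) and Ypel4 (0.921), and over the 12 libraries that were not erythroid-rich their r was 0.885, 0.799, 0.789, 0.727 and 0.589. For Fech they were Vps8 (0.920), Neat1 (0.919), Fam210b (0.907), Olfr525 (0.902) and Tmem106b (0.900), none of them a globin. Fam210b, a mitochondrial protein known from erythroid heme synthesis, was at 27.7 ± 3.50 CPM in WT spleen and 18.8 ± 2.56 CPM in KO spleen (SD, n = 4 each), and at 25.4 ± 6.56 CPM (n = 3) in WT mLN and 14.9 ± 1.45 CPM (n = 4) in KO mLN. Over the same 12 libraries, r with Fech was 0.836 to 0.915 for the 5 genes. For Hmox1 they were Alyref (0.896), Treml4 (0.888), Zfp703 (0.886), Gm44624 (0.881) and Enkur (0.873), with r of 0.884 to 0.919 over the 12 libraries. Among the members themselves, Fech had r = 0.852 with Alas2, 0.705 with Alad and −0.687 with Cpox.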

How the data were processed

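RNA of sorted CD4+ T cells was sequenced single-end in 15 samples, grouped by the genotype and organ in their labels. The authors aligned reads with STAR 2.6.1a to GRCm38 with GENCODE annotation and deposited raw read counts per gene, without normalization. Of the reads that mapped to a single place, 60.9% (median) matched no gene in the counting. Whether counting used strand is not given in the sources used here. Symbols and exon lengths were taken here from GENCODE M21, which uses that build (55240 of 55421 genes matched), and CPM is the count per 1000000 reads on genes, without TMM scaling. Counts were tested with edgeR 4.0.16 in R 4.3.3 (filter on low counts by group, TMM, quasi-likelihood test, Benjamini-Hochberg over all genes tested, limit 0.05), separately for each pair of groups. DESeq2 1.42.0, RLE scaling, other filters, 1 fit of all samples, a replicate block, a fold limit, erythroid genes removed and libraries left out were alternatives; the procedure was tested on simulated data. Subtracting an erythroid part from Fech and Urod was added after the values were seen. The members and lists were chosen with earlier results of these data known. Listed genes were named where their adjusted p was under 0.05 (at most the 4 smallest p per list and comparison), and the 5 genes most correlated with Fech, Alas2 and Hmox1 were named. Labels do not say that samples are separate mice, so p-values measure the spread between samples, and intervals of counts cover counting error only. Same-numbered WT spleen and WT mLN samples deviated together (r = 0.258, 0.243 and 0.291), which was taken as pairing, and other same-numbered samples did not all do so. The main fit of the organs in WT has no block for this pairing. T cell receptor sequencing was not analysed here.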

Additional observations from a re-analysis of the deposited data

Results flagged for a closer look

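Among 27 sets of 4 libraries (9 genes in WT spleen, KO spleen and KO mLN), 3 held a library whose distance to its nearest neighbour was more than 0.829 of the range of the set, where chance gives about 1 in 20. They were Hmox1 in KO spleen replicate 3 (37.93 CPM, 0.842 of the range), Uros in KO mLN replicate 3 (43.2 CPM, 0.912) and Alas1 in KO spleen replicate 1 (50.72 CPM, 0.856). In KO spleen replicate 3 the macrophage and monocyte markers summed to 597 CPM, the highest of all libraries. The other 3 Alas1 values of KO spleen lay between 47.1 and 47.6 CPM. WT mLN has 3 libraries and was not examined this way.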

How the results depend on the processing

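The alternatives set beside the reported fit were DESeq2, RLE scaling, a filter left off, a filter of 10 or more counts in each library, 1 fit of all samples, a replicate block, erythroid genes removed before scaling, the erythroid-rich libraries left out, a minimum absolute log2 fold change of 1, and each library left out in turn. In KO against WT spleen, 1 of the 9 genes passed, and 4 did with DESeq2, 4 without the filter, 0 with the replicate block (no pairing was found between the genotypes) and 0 with the fold minimum. With single libraries left out it was 1 to 1. Of all 35256 genes in these fits, DESeq2 called 412 lower and 387 higher, and edgeR without the filter 745 and 677. In mLN, 0 passed, and 1 did with DESeq2, 2 without the filter and 1 in 1 fit of all samples; with single libraries left out it was 0 to 0. For mLN against spleen in WT, 3 passed, 3 did with the replicate block, 0 with the fold minimum and 1 to 3 with single libraries left out. In KO, 4 passed, 3 with the replicate block (Uros then had an edgeR adjusted p of 0.0624, and of 0.0645 without the filter and 0.101 in 1 fit of all samples; these samples share only a number, with r of 0.0258 to 0.259), 1 with the fold minimum and 2 to 4 with single libraries left out. The interaction count of 0 became 1 without the filter (Hmox1), where 48 genes were called lower and 64 higher of 39155. It was 0 to 0 with single libraries left out. Of the genes of the 6 other heme lists, 1 passed between the genotypes in each organ; in spleen 7 did with DESeq2, 12 without the filter, 0 with the block or the fold minimum and 0 to 3 with single libraries left out, and in mLN 2, 3, 0 and 0 to 0. With the replicate block Pcbp1 in spleen and Cox10 in mLN no longer passed (edgeR adjusted p = 0.101 and 0.222). In the organ comparisons, 6 estimates near 0 changed sign: with single libraries left out, Alas1 ranged from −0.075 (without WT mLN replicate 1) to 0.249 in WT, and from −0.034 (without KO mLN replicate 4) to 0.125 in KO. Alad ranged from −0.109 to 0.008 (without WT spleen replicate 3) in WT, where it was at 0.001 with the replicate block and 0.04 without the erythroid-rich libraries, and from −0.009 (without KO mLN replicate 2) to 0.128 in KO. Of the single-gene estimates of KO against WT, 142 of 144 in spleen and 133 of 135 in mLN moved by less than 1 SD between replicates. The cause of these changes was not tested. Depth limits Alas2 most, with 10 to 71 reads per library outside the erythroid-rich ones.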
